A study of Mus musculus with 12 samples.

Results

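The circadian clock genes of mouse colonocytes were followed across 12 Illumina bead arrays. The members were chosen by gene symbol: Dbp, Tef, Ciart, Cry2, Arntl, Npas2 and Clock, with Per1, Per2 and Per3 where the table held them. Of these 10 genes, 8 had a row among the 15154 rows of the table (Ciart under its older symbol Gm129), and Per2 and Per3 were not analysed here. A row was tested where its deposited detection p was below 0.05 on at least 3 arrays, and 7 of the 8 members passed with 8107 genes in all. Where this p moves in whole steps, it was taken as the share of blank beads that are as bright. Other rows, those of Clock, Cry2 and Tef among them, do not follow the steps, and that reading does not hold for them. Throughout, above background means a deposited p below 0.05. Clock did not pass and is described without entering any fit. The genes were picked with their differences between germfree (GF) and conventionally raised (CONV) mice in the 2 batches known. Their GF minus CONV values are therefore given as a description, without a test.

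All 12 samples were isolated colonocytes, the absorptive epithelial cells that line the colon, from C57BL/6 mice. The GF group (6 samples) came from mice kept in isolators without microbes and the CONV group (6 samples) from mice raised with a normal microbiota. The labels call the 6 samples of a group biological replicates and number them, with numbers 1 to 3 assigned to batch 1 and numbers 4 to 6 to batch 2. No transgene, treatment or deletion is named for either group, and the labels are silent on age, sex and the hour of collection. Values are log2 intensities after background correction and quantile normalization, so that 1 unit is a doubling of the signal, and levels are compared between samples for 1 gene and never between genes.

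The clock is a loop of transcription and translation. CLOCK or its relative NPAS2 pairs with BMAL1, the protein of Arntl, binds E-box sequences and switches on the Per, Cry and Ciart genes, whose proteins return to repress the pair. The same E-boxes drive Dbp and Tef, which encode PAR-domain leucine-zipper factors that pass the rhythm to output genes through D-box sequences. A second loop of ROR activators and REV-ERB repressors acts on ROR elements of Arntl and Npas2, and in mouse peripheral tissues, the gut among them, Arntl and Npas2 transcripts run in nearly opposite phase to Dbp, Tef, Per and Ciart.

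The promoter windows of the members were read from RefSeq (GRCm38.p6, 250 bases before to 50 bases after each annotated start). They are shown because the members divide, by what is known of them, into genes driven through E-boxes and genes driven through ROR elements. All 8 members matched, with 13 windows. Both strands were searched for the E-box CACGTG, the E-prime box CACGTT, the D-box TTANGTAA, the ROR element (AANTN followed by GGTCA) and its core AGGTCA, which overlaps the end of the ROR element where its last N is an A. Capitals mark the matches. Positions are the first base of the match counted from the start. Ciart lies at chr3:95882179-95882478 (minus strand), the first Tef start at chr15:81802423-81802722 (plus strand), the first Per1 start at chr11:69098699-69098998 (plus strand), Cry2 at chr2:92434020-92434319 (minus strand), the second Arntl start at chr7:113207261-113207560 (plus strand) and Dbp at chr7:45704997-45705296 (plus strand).
Ciart: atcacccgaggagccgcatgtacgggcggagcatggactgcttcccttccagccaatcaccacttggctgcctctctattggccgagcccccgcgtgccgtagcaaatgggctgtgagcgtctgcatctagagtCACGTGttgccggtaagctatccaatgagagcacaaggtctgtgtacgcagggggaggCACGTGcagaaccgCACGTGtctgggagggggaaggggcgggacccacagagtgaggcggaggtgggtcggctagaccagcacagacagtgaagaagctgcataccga
Tef, first start: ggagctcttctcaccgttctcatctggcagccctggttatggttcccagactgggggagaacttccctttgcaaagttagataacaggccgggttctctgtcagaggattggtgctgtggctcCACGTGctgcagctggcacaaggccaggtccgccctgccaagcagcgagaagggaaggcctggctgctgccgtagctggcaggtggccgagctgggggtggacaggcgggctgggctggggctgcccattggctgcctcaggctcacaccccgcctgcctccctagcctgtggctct
Per1, first start: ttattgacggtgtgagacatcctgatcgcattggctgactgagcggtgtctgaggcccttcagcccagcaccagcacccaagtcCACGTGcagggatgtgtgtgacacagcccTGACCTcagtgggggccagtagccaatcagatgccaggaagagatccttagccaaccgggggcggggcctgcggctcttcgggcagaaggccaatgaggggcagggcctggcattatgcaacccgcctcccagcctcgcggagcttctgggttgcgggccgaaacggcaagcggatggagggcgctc
Cry2: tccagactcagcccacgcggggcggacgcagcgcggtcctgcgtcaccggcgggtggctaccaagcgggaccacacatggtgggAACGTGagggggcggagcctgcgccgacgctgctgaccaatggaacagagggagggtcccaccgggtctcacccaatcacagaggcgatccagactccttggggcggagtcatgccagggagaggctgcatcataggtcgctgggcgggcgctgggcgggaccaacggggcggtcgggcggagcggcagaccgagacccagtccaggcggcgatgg
Arntl, second start: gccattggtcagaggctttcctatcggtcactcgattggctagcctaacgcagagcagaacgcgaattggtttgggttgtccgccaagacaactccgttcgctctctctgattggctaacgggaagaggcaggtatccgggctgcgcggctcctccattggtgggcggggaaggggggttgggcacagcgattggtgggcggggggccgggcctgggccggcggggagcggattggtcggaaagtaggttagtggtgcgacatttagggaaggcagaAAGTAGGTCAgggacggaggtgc
Dbp: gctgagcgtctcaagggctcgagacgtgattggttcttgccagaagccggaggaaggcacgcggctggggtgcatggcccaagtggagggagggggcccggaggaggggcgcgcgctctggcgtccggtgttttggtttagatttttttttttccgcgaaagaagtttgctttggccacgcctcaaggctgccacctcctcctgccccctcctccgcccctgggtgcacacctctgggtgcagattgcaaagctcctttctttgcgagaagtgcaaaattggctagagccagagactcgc

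The E-box was present in 4 of the 13 windows, which belong to 3 of the 8 members. Ciart held 3 E-boxes, at -116, -58 and -44. Tef held 1 before each of its starts, at -127 and -138. Per1 held 1 at -166 before its first start, with an AGGTCA core at -137. Cry2 held an E-prime box at -166 on the minus strand. Arntl was the member with a ROR element, at 28 after its second start, and Clock held an AGGTCA core at -119 before the third of its starts. The Dbp and Npas2 windows held none of these letters, which says nothing of sites elsewhere in the genes. Over 32851 RefSeq mouse windows of this length, 7.15% held the E-box, 4.685% the E-prime box, 2.323% the D-box, 0.6058% the ROR element and 16.26% the AGGTCA core. The map of matches sets the 13 windows beside each other.

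**Figure D1:**
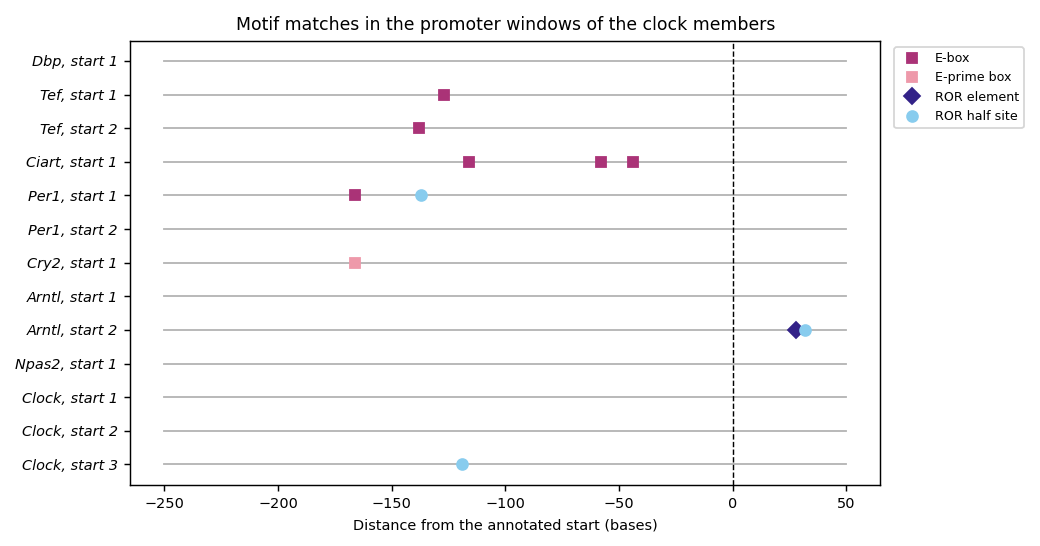
Matches to the searched motifs in the RefSeq promoter windows of the 8 members. The x axis is the distance from the annotated start in bases (250 before to 50 after), each line is 1 window and each mark the first base of a match; the E-boxes lie at Ciart, Tef and Per1, and the ROR element at the second Arntl start.

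Batch 1 and batch 2 differed across the whole table, and the quality of the arrays bears on every value below. The first principal component held 83.4% of the variance. Once each batch mean was subtracted, the first component held 43.3% of what remained. Batch 1 arrays had 7090 to 7402 detected rows, a correlation of 0.994 to 0.999 between arrays of a group and a median SD within groups of 0.0819. Batch 2 arrays had 6089 to 6470 detected rows, correlations of 0.980 to 0.991 and a median SD of 0.187. Epithelial markers, such as the keratins and villin, were represented by 11 of 15 listed genes, with a summed signal of 66050 to 87443 over all arrays. Epcam, an epithelial adhesion molecule, was above background in batch 1 but on no array of batch 2. Krt20, a keratin of differentiated epithelium, was above background on no array of batch 1 (4.86 to 5.04) and stood at 12.26 to 13.26 in batch 2. Among leukocyte markers Ptprc, Cd8a, Itgam and Csf1r did not pass the filter, while Cd3g, of T cells, was above background on all 12 arrays and Lyz2, of myeloid cells, on 4 arrays, all of batch 2.

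In batch 1 the members split into 2 blocks that moved in opposite directions. Dbp, Tef, Ciart, Per1 and Cry2 were higher in all 3 GF arrays than in any CONV array, and Arntl and Npas2 were lower in all 3. Over all genes tested, 28.1% lay above and 28.4% below without overlap in this batch, and because the members were chosen on this contrast nothing is read from their count. In batch 2 all 8 members had a higher mean in GF, by 0.23 to 0.60 on the log2 scale, Arntl and Npas2 included. The median difference of all genes tested was 0.01 in that batch. There, 4 of the 8 did not overlap between groups (Tef, Per1, Cry2 and Clock), beside 13.2% of all genes above without overlap. The members were chosen with this contrast known too, so nothing is read from either count of batch 2. By the deposited detection p, Cry2 and Clock were above background on no array of batch 2. Clock is also not among the genes tested on which that share rests. In bulk samples, fewer cells of a type and less RNA per cell cannot be told apart.

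**Figure D2:**
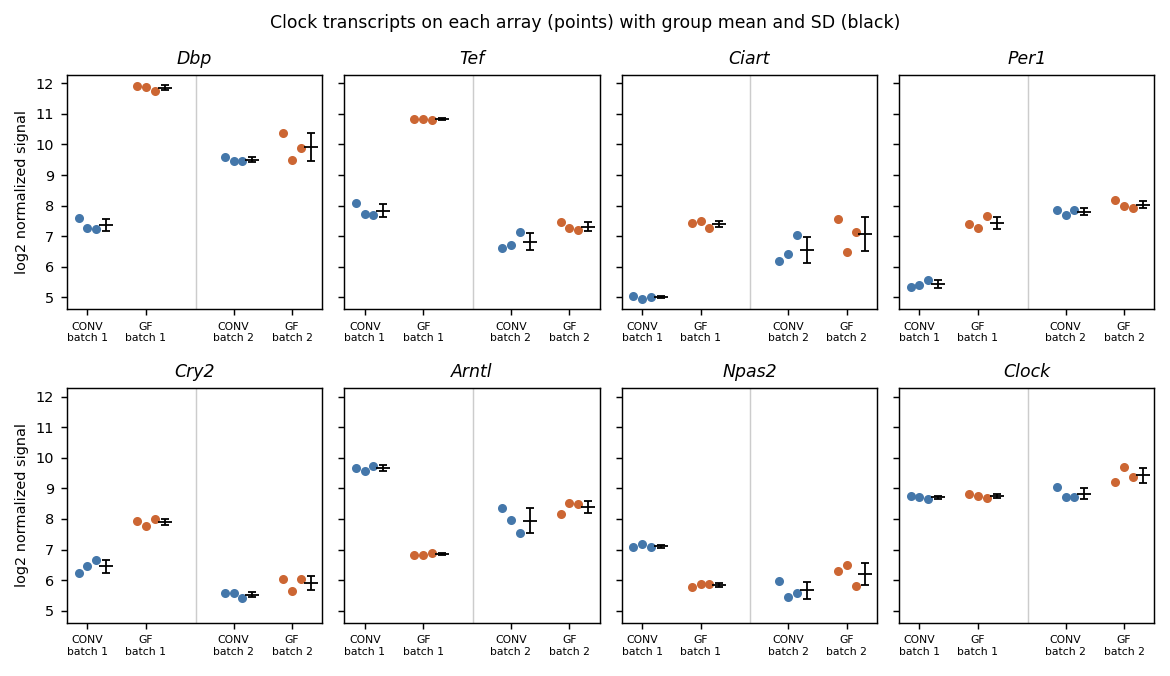
Log2 level of each of the 8 members on the 12 arrays, GF and CONV side by side in batch 1 and batch 2, with 1 point per array and the mean and SD of 3 arrays in black. In batch 1 the groups stand far apart for the 7 members other than Clock; in batch 2 they lie close together.

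Among the output factors, Dbp differed most. In batch 1 its log2 level was 11.91, 11.89 and 11.76 on the GF arrays and 7.60, 7.27 and 7.24 on the CONV arrays. All 3 GF arrays were far above the CONV arrays, by 4.48 ± 0.13 (SE, n = 3 per group), a 22.3-fold higher signal. This was the 2nd largest difference in size of the 8107 genes. In batch 2 the level was 10.37, 9.49 and 9.89 in GF and 9.59, 9.45 and 9.45 in CONV. The groups overlapped, with GF higher by 0.42 ± 0.26, and without GF 4 the difference was 0.19. The order from low to high was CONV of batch 1, CONV of batch 2, GF of batch 2 and GF of batch 1, with the middle pair overlapping. An order across batches carries every difference between the batches' arrays.

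Tef, the thyrotroph embryonic factor, encodes a close relative of DBP. Its level in batch 1 was 10.84, 10.84 and 10.81 in GF and 8.08, 7.73 and 7.70 in CONV. The groups were apart by 3.00 ± 0.12, which is 7.98-fold. Levels of Tef in batch 2 were 7.48, 7.26 and 7.22 in GF and 6.61, 6.73 and 7.13 in CONV. GF was above CONV without overlap, though the closest arrays were near each other. The measured difference was 0.49 ± 0.18 on the log2 scale. The deposited detection p of Tef did not fall on the steps that other rows follow in this batch. It was below 0.05 on GF 5 and GF 6 but not on the brighter GF 4, and on no CONV array, although the CONV arrays stood 4.08 to 5.76 SDs of the blank beads above their mean.

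Of the repressors, Ciart encodes CHRONO, which binds the BMAL1 pair and lowers its activity. Ciart stood in batch 1 at 7.45, 7.49 and 7.27 in GF and 5.06, 4.96 and 5.03 in CONV. The CONV arrays were not well above background on any array, so GF was at least 4.43-fold higher, the bound being the lowest signal of detected rows on those arrays. The measured difference was 2.39 ± 0.07 on the log2 scale. In the other batch Ciart was 7.57, 6.50 and 7.15 in GF and 6.21, 6.43 and 7.03 in CONV. The groups overlapped, with GF higher by 0.52 ± 0.40, and CONV now lay in the detected range on all 3 arrays.

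Per1 encodes a Period protein, which with the cryptochromes forms the main repressor complex. Its level in batch 1 was 7.39, 7.25 and 7.65 in GF and 5.34, 5.41 and 5.57 in CONV. GF was above CONV on every array, by 1.99 ± 0.14 or 3.98-fold. The CONV arrays passed detection but stood only 1.24 to 1.90 SDs of the blank beads above their mean, so this fold rests on values close to background. Batch 2 levels of Per1 were 8.18, 7.9999 and 7.94 in GF and 7.86, 7.69 and 7.87 in CONV. The groups did not overlap but lay close, 0.23 ± 0.09 apart, ranking 3296 by size among all genes of that batch. Both groups of batch 2 were above the GF group of batch 1, a comparison that carries every difference between the batches' arrays.

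Cry2 encodes a cryptochrome, the partner of the Period proteins. Levels of Cry2 in batch 1 were 7.95, 7.78 and 7.98 in GF and 6.23, 6.45 and 6.66 in CONV. GF was above CONV by 1.45 ± 0.14, which is 2.74-fold, with 2 of 3 arrays of each group above background. The deposited detection p of Cry2 did not fall on the steps that other rows follow. It was not below 0.05 on GF 2, although that array stood 10.6 SDs of the blank beads above their mean. For Cry2 the batch 2 levels were 6.02, 5.65 and 6.04 in GF and 5.58, 5.58 and 5.42 in CONV. No array of either group was above background there, so no fold is given.

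Among the activators, Arntl encodes BMAL1, the partner without which the mouse clock stops. Its level in batch 1 was 6.83, 6.81 and 6.89 in GF and 9.67, 9.56 and 9.74 in CONV. GF was below CONV on every array, by -2.81 ± 0.06 on the log2 scale, and CONV was 7.03-fold higher. In batch 2 the level was 8.15, 8.52 and 8.50 in GF and 8.35, 7.97 and 7.53 in CONV. The groups overlapped, with the GF mean 0.44 ± 0.27 above that of CONV. The order from low to high was GF of batch 1, CONV of batch 2, GF of batch 2 and CONV of batch 1, the reverse of the outer groups of Dbp, again with the middle pair overlapping. As for Dbp, this order carries every difference between the batches' arrays.

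Npas2 encodes a partner of BMAL1 that stands in for CLOCK. In batch 1 Npas2 was 5.77, 5.88 and 5.88 in GF and 7.08, 7.17 and 7.08 in CONV. GF was lower throughout, by -1.27 ± 0.05 on the log2 scale, and CONV was 2.40-fold higher. In batch 2, Npas2 was 6.31, 6.51 and 5.80 in GF and 5.97, 5.45 and 5.58 in CONV. The groups overlapped and GF had the higher mean, by 0.54 ± 0.26.

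Clock encodes the other partner of BMAL1, whose transcript is known for a shallow rhythm in most mouse tissues. Its level in batch 1 was 8.81, 8.73 and 8.69 in GF and 8.76, 8.72 and 8.66 in CONV. The groups overlapped and their means were 0.03 ± 0.04 apart. Batch 2 levels of Clock were 9.21, 9.69 and 9.38 in GF and 9.04, 8.73 and 8.72 in CONV. GF was above CONV there without overlap, by 0.60 ± 0.17. The deposited detection p of this row passed 0.05 on 1 array, while its intensity stood 19.6 to 37.9 SDs of the blank beads above their mean, and its p values did not fall on the steps that other rows follow.

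**Figure D3:**
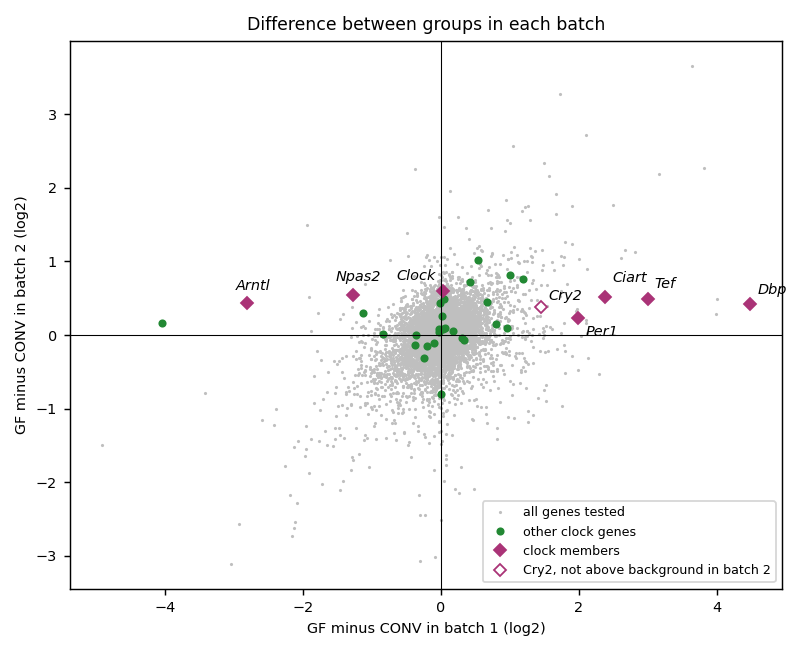
GF minus CONV (log2) in batch 1 on the x axis against the same in batch 2 on the y axis, for all 8107 genes tested (grey) the 26 other clock genes (green) and the 8 members (diamonds, Cry2 open because neither group was above background in batch 2). Clock is drawn filled, though by its deposited detection p it too was above background on no array of batch 2. The members spread from -2.81 to 4.48 along x and lie between 0.23 and 0.60 along y.

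The members also differed between the batches within each group. In CONV, batch 2 minus batch 1 was 2.13 for Dbp, 1.54 for Ciart, 2.37 for Per1, -1.71 for Arntl and -1.45 for Npas2. In GF it was -1.94 for Dbp, -0.33 for Ciart, 0.61 for Per1, 1.54 for Arntl, 0.36 for Npas2 and -3.51 for Tef. Thus Dbp was higher and Arntl lower in batch 2 than in batch 1 among CONV samples, and the signs were opposite among GF samples, as they were for Ciart and Npas2. Per1 was higher in batch 2 in both groups. Tef and Cry2 were lower in batch 2 in both groups (Tef by -1.01 in CONV, Cry2 by -0.92 in CONV and -1.998 in GF), and Clock differed by 0.12 in CONV and 0.68 in GF. Over all genes the SD of such shifts was 1.22 in CONV and 1.21 in GF around medians of -0.08 and -0.09, and the shifts carry every difference between the batches' arrays.

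Whether the members moved together among samples of the same batch and group was tested apart from the GF minus CONV difference, which this measure removes. For the 7 members in the fit, the 21 pairs gave Pearson correlations of -0.801 to 0.686 with a median of 0.0701, 12 of them positive. None passed an exact permutation test within groups after Benjamini-Hochberg adjustment over the 21 pairs, and 2 had an unadjusted p below 0.05. Tef and Ciart had r = 0.686 (two-sided exact permutation p = 0.0270, adjusted p = 0.397) and Spearman's rho of 0.615 (exact permutation p = 0.0301, adjusted p = 0.362). Without the 2 arrays farthest from the median of Tef r was 0.666, and it was 0.357 within batch 1 and 0.803 within batch 2. Tef and Arntl had r = -0.777 (exact permutation p = 0.0378, adjusted p = 0.397) and rho of -0.678 (exact permutation p = 0.0502, adjusted p = 0.362). For this pair r was -0.815 without the 2 farthest arrays, 0.0539 within batch 1 and -0.973 within batch 2. Within a single batch the 36 arrangements gave no p below 0.0556.

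Other genes of the clock are no members, and their differences were tested with limma, adjusted over all 8107 genes. The lists of these genes were also chosen with earlier results of these data known. Their p-values are therefore no independent support. Of 53 listed genes 36 had a row and 26 were tested. In batch 1, 9 rose in GF, 6 fell and 11 did not pass, against 23.3% of all genes higher and 23.6% lower (47.0% in all). Their median difference was 0.03, beside 0.01 for all genes. In batch 2, 2 rose and 24 did not pass, against 2.76% of all genes in either direction and 1.12% higher. With both batches in a fit, 8 rose and 1 fell, against 11.4% and 12.1% of all genes (23.5% together). The shares of the list in batch 1 were near or moderately above those of all genes, and nothing particular to the list is read from them.

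In the core and stabilising loop Cry1, Bhlhe41, Hlf and Timeless did not pass the filter, and Nr1d1, Bhlhe40 and Nfil3 were not analysed here. Nr1d2, which encodes the repressor REV-ERB beta, rose by 0.33 ± 0.09 in batch 1 (limma, adjusted p = 0.0129), a call lost without GF 2 (limma, adjusted p = 0.0535). The Nr1d2 difference in batch 2 was -0.07 ± 0.25. Arntl2, the paralogue of Arntl, differed by -0.03 ± 0.06 in batch 1 and did not pass.

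Among kinases, ligases and cofactors 9 of 10 genes with a row were tested, and in batch 1 1 rose and 2 fell. Of all genes 47.0% passed in that batch. Csnk2a1, the catalytic subunit of casein kinase 2 that acts on clock proteins, rose by 0.31 ± 0.08 (limma, adjusted p = 0.0104). Nrip1, a nuclear receptor corepressor, was 5.85, 5.72 and 6.17 in GF and 7.17, 6.94 and 7.001 in CONV of batch 1 and fell by 1.12 on the log2 scale (SE 0.11, limma adjusted p = 6.98e-05). In batch 2 Nrip1 was above background on no array, at a mean of 5.36 in GF and 5.07 in CONV. Ppp1cb, a catalytic subunit of protein phosphatase 1, had a mean of 7.64 in GF and 8.48 in CONV of batch 1 and passed as lower (limma, adjusted p = 3.49e-05), though the deposited detection p was not below 0.05 on any array of that batch. Csnk1d, the kinase that marks Period proteins for turnover, differed by 0.03 in batch 1 (limma, adjusted p = 0.741) and 0.08 in batch 2 (limma, adjusted p = 0.748). Wdr5, a histone methylation cofactor of the clock, differed by 0.07 and 0.09 and did not pass either.

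Of the clock outputs, 12 of 13 genes with a row were tested, and in batch 1 4 rose and 4 fell. The share of all genes passing in that batch was 47.0%. Usp2, a deubiquitinase under clock control in mouse tissues, was 7.49, 7.50 and 7.43 in GF and 6.54, 6.48 and 6.52 in CONV. It rose by 0.96 ± 0.05 (limma, adjusted p = 1.90e-06), with the groups wide apart. By its deposited detection p it was not above background on any array of batch 2, at a mean of 7.68 in GF and 7.59 in CONV. Fkbp5, a co-chaperone of the glucocorticoid receptor, rose by 1.19 ± 0.07 in batch 1 (limma, adjusted p = 4.13e-06). In batch 2 Fkbp5 was 11.28, 10.26 and 11.15 in GF and 9.77, 10.21 and 10.41 in CONV. GF 5 lay among the CONV arrays, and the difference of 0.77 ± 0.29 did not pass (limma, adjusted p = 0.214); without GF 5 it did (limma, adjusted p = 0.0401). Coq10b, a coenzyme Q binding protein, rose by 0.80 ± 0.06 in batch 1 (limma, adjusted p = 1.76e-05).

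Cirbp, a cold-inducible RNA-binding protein that follows body temperature rhythms, passed in both batches. In batch 1 it rose by 0.54 ± 0.09 (limma, adjusted p = 0.00121). In batch 2 it was 8.93, 8.65 and 8.58 in GF and 7.63, 7.41 and 8.06 in CONV. All GF arrays were above the CONV arrays, by 1.02 ± 0.19 (limma, adjusted p = 0.0406), a call lost without any 1 of the 6 arrays (limma, adjusted p 0.0525 to 0.141). The 4 outputs that fell in batch 1, named after their values were seen, were Alas1, Lonrf3, Rbm3 and Tspan4. Alas1, the first enzyme of haem synthesis, fell by 0.38 on the log2 scale (limma, adjusted p = 0.00203). For Rbm3, a relative of Cirbp, the CONV arrays stood at 11.17, 5.74 and 11.32 against 5.29 to 5.48 in GF. The Rbm3 call therefore rested on 2 CONV arrays that were far above all other arrays. Lonrf3 was above background on no batch 1 array and Tspan4 on no GF array. Leo1, of the PAF1 elongation complex, differed by -0.21 in batch 1 (limma, adjusted p = 0.0643) and Tsc22d3, a glucocorticoid-induced gene, by -0.03 (limma, adjusted p = 0.787), and neither passed. Without CONV 1 or GF 2 Leo1 did pass (limma, adjusted p = 0.0149 and 0.0298).

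Both tested gut outputs, transporters whose levels follow the clock in rodent intestine, rose in batch 1, as did 23.3% of all genes. Slc5a1, the sodium-glucose cotransporter, rose by 0.67 ± 0.05 (limma, adjusted p = 1.20e-05) and differed by 0.45 ± 0.21 in batch 2 (limma, adjusted p = 0.293). Slc15a1, the peptide transporter, rose by 0.43 ± 0.06 in batch 1 (limma, adjusted p = 0.000571) and differed by 0.71 ± 0.20 in batch 2 (limma, adjusted p = 0.110). Slc15a1 was above background on 2 GF arrays and no CONV array of batch 2. With CONV levels raised to at least the lowest signal of detected rows, the GF mean was 1.34-fold higher there. This ratio carries no error, and its GF mean includes the GF array that was not above background. For both genes every GF array was above every CONV array of its batch, except that Slc5a1 in batch 2 was 9.62 on GF 5 and 9.69 on CONV 4.

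**Figure D4:**
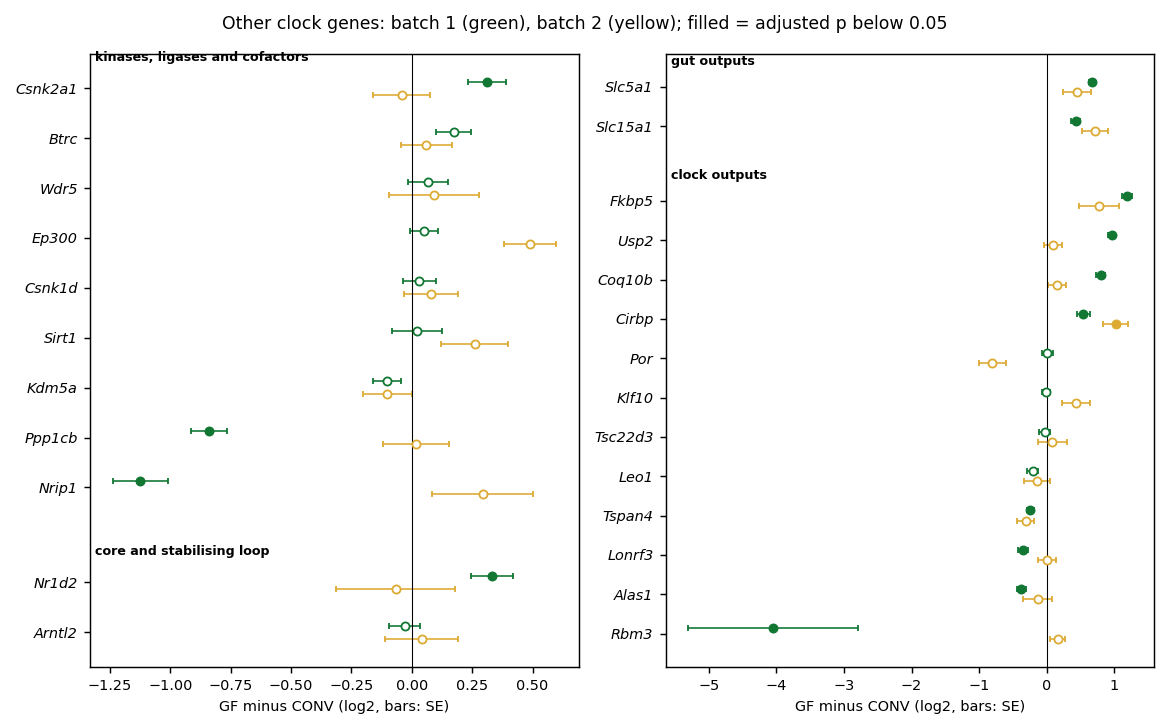
GF minus CONV (log2) of tested clock genes that are no members, grouped by list, in batch 1 and batch 2, with bars of 1 standard error from limma (3 arrays per group); filled points passed an adjusted p of 0.05. Cirbp is filled in both batches.

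The difference between the batch contrasts was itself tested for these genes. By limma's interaction term 6 of the 26 passed, 3 with a higher value in batch 2 (Nrip1, Ppp1cb and Ep300) and 3 with a lower one (Usp2, Coq10b and Por), against 9.19% of all genes. Usp2 differed by -0.87 ± 0.14 (limma, adjusted p = 0.00439) and Coq10b by -0.64 ± 0.14 (limma, adjusted p = 0.0165), the latter lost without CONV 2 or CONV 3. Nrip1 differed by 1.42 ± 0.26 (limma, adjusted p = 0.00672) and Ppp1cb by 0.86 ± 0.16 (limma, adjusted p = 0.00673). Of these 6, Usp2 and Nrip1 in batch 2 and Ppp1cb in batch 1 were those that the deposited detection p placed at background in both groups of that batch. Por, the electron donor of cytochrome P450 enzymes, passed at -0.81 ± 0.23 (limma, adjusted p = 0.0478), lost without any 1 of 10 arrays. Ep300, an acetyltransferase, passed at 0.44 ± 0.11 (limma, adjusted p = 0.0304), lost without any 1 of 6 arrays and above background on 3 of the 12.

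Other gene groups also differed between GF and CONV in batch 1, where 23.3% of all genes rose and 23.6% fell. Their lists too were chosen with earlier results of these data known, so their counts and p-values are no independent support. In batch 2, 2.76% of all genes passed in either direction. Of 14 tested immediate-early and stress genes, which cells switch on within minutes of a stimulus, 12 rose and 1 fell in GF of batch 1 (median 1.03), while in batch 2 2 fell and 12 did not pass (median 0.05). Fosb, an AP-1 subunit, rose by 4.00 ± 0.09 (limma, adjusted p = 1.49e-08), close to the size of the Dbp difference, and the early response genes Egr1 and Ier2 rose by 2.03 and 1.83 (limma, adjusted p = 1.42e-07 and 4.48e-07). Their summed signal in batch 1 was 16070 to 17334 in CONV and 31459 to 32024 in GF. In batch 2 it was 31206 to 32143 in CONV and 24872 to 36971 in GF, an overlap of the groups. Single genes differed between CONV of batch 2 and GF of batch 1, with Fosb at a mean of 10.18 and 10.10 and Ier2 at 6.57 and 8.62. Comparisons across batches carry every difference between the batches' arrays. By limma's interaction the GF minus CONV difference of 9 of the 14 was lower in batch 2 than in batch 1, against 9.19% of all genes in either direction, and the part of these genes in the members' values was not tested.

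Markers of other cell types were read in the same way. Over all genes 47.0% passed in batch 1 and 2.76% in batch 2, and no excess is read from the counts of these short lists. All 4 tested enteroendocrine markers (of 5 with a row) rose in batch 1, and the same 4 did not pass in batch 2. Their summed signal was 3324 to 3965 in CONV and 6916 to 7151 in GF of batch 1, and 5615 to 6911 and 7928 to 10331 in batch 2. These sums rest mostly on Gcg and Pyy, which differed by 0.70 and 0.30 in batch 2. Chga and Tph1 differed there by -0.47 and -0.45. Goblet markers rose for 2 and fell for 1 of 4 in batch 1, with sums of 12687 to 13217 in CONV and 15823 to 16491 in GF. Of 3 tested crypt markers, Lgr5 rose, and Top2a and Pcna fell. The epithelial markers had overlapping sums in batch 1, 66050 to 70230 in CONV and 67479 to 72019 in GF, with 4 rising and 2 falling of 11. Of the leukocyte list only 2 genes were tested and Cd3g rose by 1.00. The 2 tested leukocyte genes summed to 87.0 to 94.9 in CONV and 149 to 151 in GF. The part of these cells in the clock values was not tested.

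Genes whose pattern was most like that of Dbp and Arntl were named by their correlation over the 12 arrays after each batch mean was removed, among 1588 genes with an SD of at least 0.3. The arrays share the split of batch 1, on which these values largely rest. For Dbp the highest were Defa29 (r = 0.987), Tef (r = 0.987), F3 (r = 0.986), Pomgnt2 (r = 0.983), Prss23 (r = 0.982) and Gm1123 (r = 0.981), with Per1 next at 0.980. The lowest were Irgm1 (r = -0.988), Denn2b (r = -0.979), Gsdmcl-ps (r = -0.976), Mtch2 (r = -0.971), Haspin (r = -0.967) and Gnas (r = -0.955). In all, 88 genes had r above 0.9 with Dbp and 59 below -0.9.

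For Arntl the highest were Irgm1 (r = 0.963), Pimreg (r = 0.953), Haspin (r = 0.947), Oas1c (r = 0.946), Lypla1 (r = 0.946) and Tmtc2 (r = 0.945). The lowest were Ramp1 (r = -0.988), Klk1b27 (r = -0.980), Kctd14 (r = -0.979), St6gal1 (r = -0.979), Klk1b8 (r = -0.976) and Klk1b5 (r = -0.972). The Klk1b genes are near-identical kallikreins and Defa29 belongs to the defensin family, so their probes may read more than 1 gene. Npas2 ranked 22nd with r = 0.906. Dbp and Arntl had r = -0.950 over 12 arrays, -0.998 over the 6 arrays of batch 1 and 0.236 over the 6 of batch 2.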

How the data were processed

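Total RNA of isolated colonocytes was extracted with Trizol and labelled as biotinylated cRNA, per the labels' protocols. The authors deposited 1 table with an intensity on a natural log scale and a detection p-value for each of 15154 rows and 12 arrays. The log base was found from the values: raised to base e, 95.2% to 97.6% of an array's values end at 7 significant digits, against at most 1.79% in base 2. The submitters' processing notes name limma. Array design, scanner and build: not given in the sources used here. The series' value table holds the same values.

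Intensities were corrected by normexp with blank beads inferred from the steps of the deposited detection p-values (1603 steps in batch 1, 1872 in batch 2, offset 16), turned to log2 and quantile normalized over the 12 arrays. Blank beads averaged 56.8 to 58.9 in batch 1 and 182 to 184 in batch 2. Some rows have p-values between the steps. The filter kept 8122 rows (p below 0.05, 3 arrays or more), and the brightest row stood for a gene. Symbols were updated through RefSeq (11696 current, 2532 updated, 877 unmatched). limma 3.58.1 in R 4.3.3 was fitted within each batch, over both with a batch term, and with an interaction, with Benjamini-Hochberg adjustment over 8107 genes and a threshold of 0.05. Errors of the members are standard errors of a difference of 2 means, and the number of arrays limits the precision. The fits were tested on simulated data. A listed clock gene that counts include is not reported here. The members and lists were chosen with earlier results of these data known. Named were all members, up to 4 genes a list called in each batch and in the interaction, up to 2 bright uncalled ones, and the 6 most and least correlated with Dbp and Arntl. Replicate numbers were not taken as pairs in the main fits, as same-numbered GF and CONV arrays correlated at only -0.271 to 0.0394. Of the 6 GF arrays 3, all of batch 1, were closest to the CONV array of their own number. Alternatives changed background correction, normalization, filter, batch term, replicate block and samples.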

Additional observations from a re-analysis of the deposited data

Results flagged for a closer look

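Levels of the members and of the named clock genes were searched for arrays far from the rest of their 6-array group, and 3 of 52 groups held one. Each group spans both batches and no batch mean was removed, so a gap between the batches can hide such an array. No chance rate is therefore set beside this count. Clock stood at 9.04 on CONV 4, with the next array at 8.76. Fkbp5 stood at 9.77 on CONV 4, the next at 10.19, and at 10.26 on GF 5, the next at 11.15. The GF minus CONV difference of 6 genes outside the members differed between the batches by limma's interaction term, as batch 2 minus batch 1 on the log2 scale: Ppp1cb by 0.86, Nrip1 by 1.42, Ep300 by 0.44, Usp2 by -0.87, Coq10b by -0.64 and Por by -0.81. The causes were not tested.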

How the results depend on the processing

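The members kept the sign of their differences under every alternative run, which leave out Cry2 in batch 2, where neither group was above background. Clock was kept in these runs, though by its deposited detection p it too was above background on no array of batch 2. Without background correction the batch 1 differences were smaller, 1.34 for Ciart, 0.89 for Cry2, 1.07 for Per1, -0.66 for Npas2, 3.84 for Dbp, 2.55 for Tef and -2.10 for Arntl. Leaving out 1 array, batch 2 differences ran from 0.19 to 0.63 for Dbp, 0.27 to 0.81 for Ciart and 0.23 to 0.64 for Arntl. Of 180 alternative values of members 157 moved by less than 1 SD, and 1247 of 1322 of named other clock genes kept their call. Among the counts of other clock genes called (15 in batch 1, 2 in batch 2, 9 in both, 6 in the interaction), the batch 2 count was 1 without the detection filter. A stricter filter (p below 0.01 on 6 arrays or more), which leaves 15 genes, gave 8, 4 and 1 in batch 1, both batches and the interaction. With the replicate number as a block, the counts were 0 in batch 2 and 2 in the interaction, and over all genes 18 in batch 2, 1200 in both and 383 in the interaction (main 224, 1906 and 745). Without a batch term both batches gave 1 of the list and 249 of all genes. Contrasts from 1 fit of 12 arrays gave 1925 of all genes in batch 1 (main 3809), and 7 of the list and 1413 of all genes in batch 2.

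Leaving out 1 array gave 14 to 15, 0 to 2, 8 to 9 and 3 to 6 of the list in batch 1, batch 2, both and the interaction. It gave 3154 to 4047, 21 to 281, 1401 to 2160 and 416 to 1034 of all genes. The batch 2 list count was 0 without CONV 4, CONV 5, CONV 6, GF 4 or GF 6, and the interaction count 3 without CONV 3. Over all genes, batch 2 gave 56, 21 and 27 without CONV 4, 5 and 6 and 64 and 24 without GF 4 and 6. The interaction gave 443 without CONV 2 or GF 1, 423 without CONV 3, 416 without GF 2 and 450 without GF 3. Scaling to the 75th percentile gave 58.2% of batch 1 calls higher (2368 against 1699). The Ep300 interaction was lost with it (limma, adjusted p = 0.128) and with loess (limma, adjusted p = 0.0997). No member pair passed without background correction, with 75th percentile scaling or with loess. None passed in the single-batch runs of 36 arrangements either, where the smallest exact permutation p was 0.0556. Leo1 in batch 1 passed without background correction, with normexp without controls and with the block. In batch 2 Cry2 was above background on no array. Causes of these changes were not tested beyond the fewer genes or arrays named.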
